A study of Rattus norvegicus with 10 samples.

Results

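The genes annotated as Y RNA, signal recognition particle (SRP) RNA, 7SK, spliceosomal RNA, RNase MRP RNA and vault RNA were examined in the CA1 region of rat hippocampal slices. These classes of RNA were chosen with earlier results of these data known. Their genes were picked by name (names starting with Y_RNA, Metazoa_SRP, 7SK, RNase_ or Vault, and names made of U and a number). Copies with the same name were kept apart by their Ensembl gene identifier. This gave 1949 of the 32545 genes in the count table. The slices came from male Wistar rats of 5 to 7 weeks and formed 5 groups of 2 libraries. The SKF group received SKF, an agonist of the dopamine D1/D5 receptors. The SKF+Aβ group received SKF with 200 nM oligomers of amyloid-beta residues 1 to 42. The SKF+Aβ+CSP group received both and CSP, a glucose-derived carbon nanosphere used as carrier, at 0.36 µg/ml. In the SKF+Aβ+CSP-TTK21 group the nanosphere carried TTK21, a small molecule that activates the histone acetyltransferases CBP and p300, at the same dose. The CSP-TTK21 group received the loaded nanosphere alone, without SKF and without Aβ, so it differs from the SKF group both in lacking SKF and in having the loaded nanosphere. By the study's methods, each repeat was made from 2 slices of 2 biological samples, so a library can hold RNA of more than 1 animal. Tests measure the spread between these libraries. The untreated group is not analysed here.

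These RNAs are short, structured and mostly not polyadenylated. Y RNAs bind the Ro60 and La proteins and take part in RNA quality control and DNA replication. The 7SL RNA, named Metazoa_SRP in the annotation, is the scaffold of the signal recognition particle, which brings ribosomes that make secreted and membrane proteins to the endoplasmic reticulum. 7SK RNA holds the kinase P-TEFb in an inactive complex with HEXIM proteins and so restrains the release of paused RNA polymerase II, a step used by activity-induced genes in neurons. U1, U2, U4, U5 and U6 are the RNA cores of the major spliceosome, and U11 and U12 belong to the minor spliceosome. U3 and U8 guide ribosomal RNA processing in the nucleolus and U7 acts in histone mRNA processing, so these 3 classes matched the naming rule without being spliceosomal. RNase MRP RNA is the catalytic core of an enzyme that processes ribosomal RNA, and vault RNA is part of the vault particle. RNA polymerase III makes the Y, SRP, 7SK, U6, MRP and vault RNAs, and RNA polymerase II makes the other U RNAs. Most of these RNAs have near-identical copies and pseudogenes in mammalian genomes, and reads can be assigned to the wrong copy, so in the classes with several annotated genes each copy named here is uncertain as a source.

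Most of the annotated copies had few or no reads. A count was present for 1077 of the 1949 genes and absent for 872, and 93 passed the filter on low counts that set the 15032 genes tested. The 1949 genes held 332714 counts, 0.453% of all counts in the 10 libraries. A single 7SK copy, ENSRNOG00000058555, held 247730 of these counts, 74.5% of the total and 95.8% of the 7SK class. U1 was similarly concentrated, with 85.1% of its 29432 counts on ENSRNOG00000055105. U6 was the opposite case. Its 919 annotated copies shared 7067 counts, the highest copy held 4.61% of them, and 50 copies were needed to reach 50% of the class. The 28 Y RNA genes had 4117 counts, of which 64.7% fell on ENSRNOG00000060430 and nearly all the rest on ENSRNOG00000056608, while 10 further copies shared 58 counts. The 32 SRP genes had 3883 counts, RNase MRP RNA was a single gene with 24107 counts, and vault RNA a single gene with 73. No copy of U5, U7 or U12 passed the filter, and these classes had 139, 253 and 58 counts. Because only 93 genes passed the filter, class levels below are sums over every copy, and per-copy values are given for the copies tested.

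**Figure D1:**
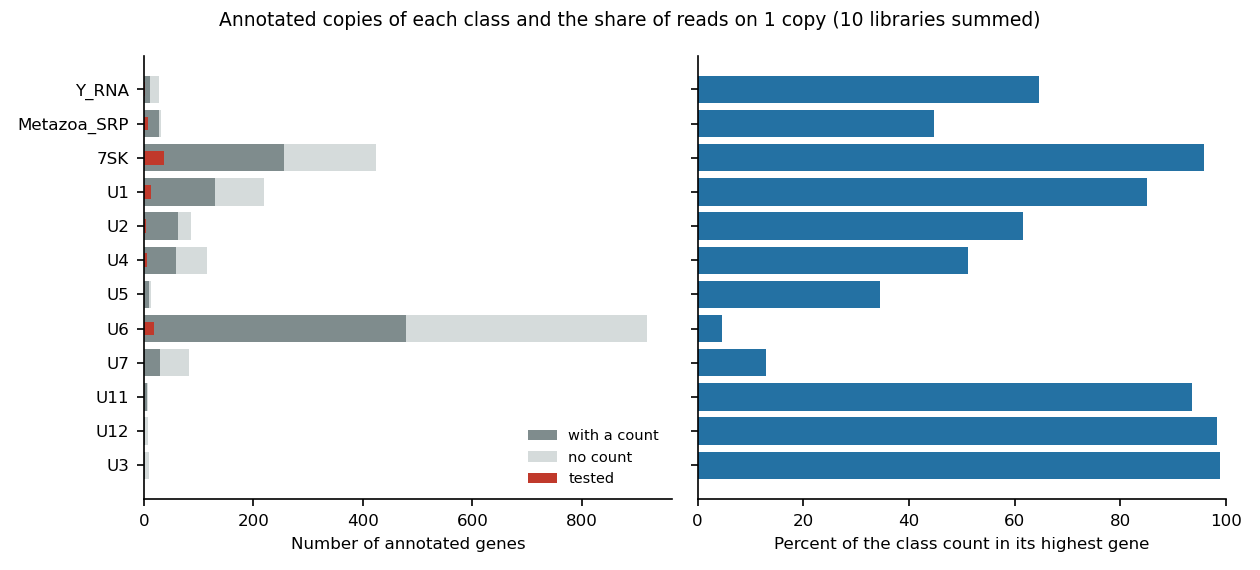
Number of annotated genes per class (left; dark grey with a count, pale grey without, red tested) and percent of the class count on its highest gene (right; counts of the 10 libraries summed). RNase MRP and vault RNA, with 1 gene each, and U8, with 2, are not drawn; U6 spreads its reads over many copies while 7SK, U11, U12 and U3 have over 90% on 1 copy.

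Library totals were between 6753742 and 8473407 counts, and the counts within pairs of replicates differed by more than sampling noise (chi-square per degree of freedom 4.97 to 12.6 over the genes tested). Markers of CA1 and other excitatory neurons, of which 7 of 8 were in the table, summed to 3435 to 4942 CPM (normalized counts, scaled to one common library size by each library's total and its TMM factor) in every library, and markers of the dentate gyrus, 3 of 3, to 196 to 300 CPM. Oligodendrocyte markers, 5 of 5, varied from 14980 to 22440 CPM in SKF, 10170 to 14540 in SKF+Aβ, 16100 to 16550 in SKF+Aβ+CSP, 13860 to 23420 in SKF+Aβ+CSP-TTK21 and 14000 to 14200 in CSP-TTK21, so that both libraries of SKF+Aβ and of CSP-TTK21 lay below SKF (log2 ratios of the means −0.60 and −0.41). Endothelial and mural markers, 4 of 5 in the table, were below SKF in SKF+Aβ+CSP-TTK21 (log2 ratio −0.57). The excitatory neuron sum was below SKF in SKF+Aβ, SKF+Aβ+CSP and CSP-TTK21, by −0.25, −0.37 and −0.25. Blood markers, 3 of 4, were below SKF in all 4 groups (−0.27 to −0.12), and CA3 markers, 3 of 3, in the 3 groups with a nanosphere (−0.31 to −0.20). Both libraries were above SKF for interneuron markers, 6 of 6, in SKF+Aβ+CSP-TTK21 (0.34) and CSP-TTK21 (0.15), for dentate markers in SKF+Aβ+CSP-TTK21 (0.26), and for choroid plexus markers, 3 of 3 and at most 4.59 CPM, in CSP-TTK21 (0.78). The other marker lists overlapped SKF. The part of these lists in the comparisons with SKF was not tested. The 13 mitochondrial genes were lowest in the SKF libraries, at 35030 and 55530 CPM against 57220 to 80440 in the other 8, and so moved with every comparison against SKF below. Their part in those comparisons was not tested. In these bulk samples, fewer cells of a type and less RNA per cell cannot be told apart.

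Y RNA was the class that differed most clearly between the groups. The test for any difference among the 5 groups called 1 of 15032 genes (0.00665%) at an adjusted p-value under 0.05, and this gene was Y_RNA ENSRNOG00000060430 (edgeR quasi-likelihood F-test, F = 43.0, adjusted p = 0.00236). At an unadjusted p under 0.05, 22 of the 93 copies and 14.4% of all genes passed. ENSRNOG00000060430 stood at 13.8 and 12.5 CPM with SKF, 41.4 and 40.2 with SKF+Aβ, 60.2 and 59.5 with SKF+Aβ+CSP, 35.0 and 34.1 with SKF+Aβ+CSP-TTK21, and 27.7 and 36.5 with CSP-TTK21. Both SKF libraries were below all 8 others, and both SKF+Aβ+CSP libraries were above all 8 others. The other tested copy, ENSRNOG00000056608, stood at 9.52 and 8.79 CPM with SKF, 25.4 and 20.1 with SKF+Aβ, 29.0 and 31.0 with SKF+Aβ+CSP, 18.6 and 18.8 with SKF+Aβ+CSP-TTK21, and 11.5 and 16.7 with CSP-TTK21. It had the same lowest and the same highest group, and its adjusted p for any difference was 0.121.

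**Figure D2:**
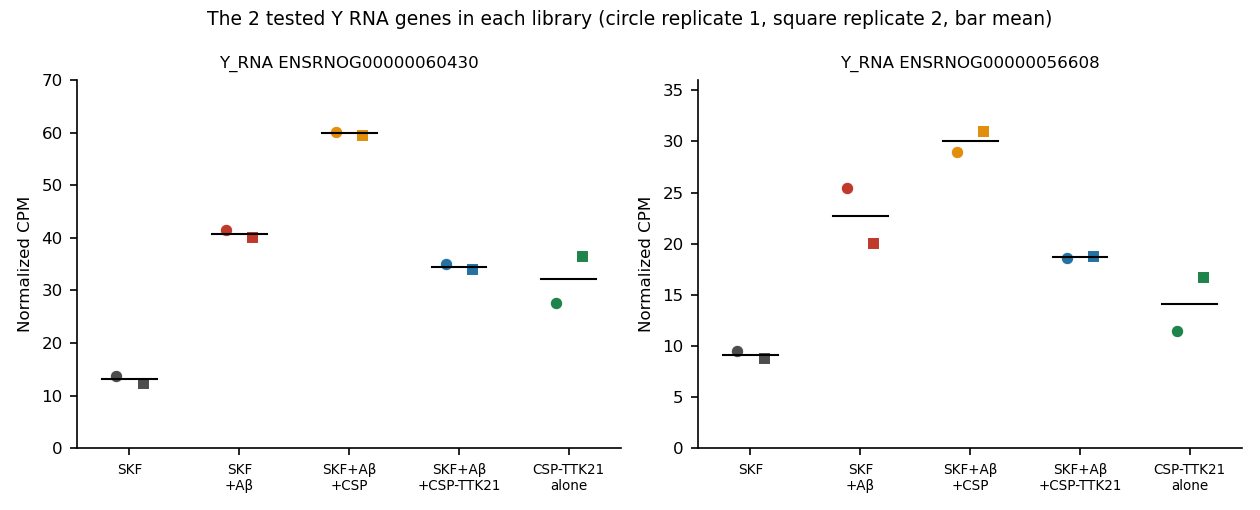
Normalized counts (CPM) of the 2 tested Y RNA genes in each library (circle replicate 1, square replicate 2, bar group mean; axes start at 0). For ENSRNOG00000060430 the SKF libraries lie at 13.8 and 12.5, below all the others, and the SKF+Aβ+CSP libraries at 60.2 and 59.5, above all the others.

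Against SKF, ENSRNOG00000060430 was higher by 1.63 on the log2 scale in SKF+Aβ (SE 0.17, adjusted p = 0.0034, edgeR) and by 2.19 in SKF+Aβ+CSP (SE 0.17, adjusted p = 8.70e-05). The difference with SKF+Aβ+CSP-TTK21 was 1.39 (SE 0.17, adjusted p = 0.0219), which passed the p-value but not the fold limit of 1.5 used for calls. In CSP-TTK21 alone the difference of 1.29 (SE 0.17) had an adjusted p of 0.0545 by edgeR. ENSRNOG00000056608 was higher by 1.31 in SKF+Aβ (SE 0.21, adjusted p = 0.0276) and by 1.71 in SKF+Aβ+CSP (SE 0.21, adjusted p = 0.0105). Its differences of 1.03 in SKF+Aβ+CSP-TTK21 and 0.62 with CSP-TTK21 had adjusted p-values of 0.0858 and 0.633 by edgeR. These comparisons share the 2 SKF libraries.

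The result in SKF+Aβ+CSP for ENSRNOG00000060430 kept an adjusted p under 0.05 with any 1 of the 10 libraries left out, at 2.12 to 2.26. In SKF+Aβ it lost the call when SKF+Aβ replicate 1 was left out (1.61, adjusted p = 0.0519, edgeR). With SKF+Aβ+CSP-TTK21 the adjusted p was above 0.05 in 6 of 10 such fits, at up to 0.159 with log2 fold changes of 1.32 to 1.46 over all 10, namely without either library of its own group, either SKF+Aβ+CSP library, SKF replicate 1 or SKF+Aβ replicate 2. For ENSRNOG00000056608 in SKF+Aβ+CSP, the log2 fold change stayed at 1.65 to 1.77, while the adjusted p rose above 0.05 without any 1 of the 4 libraries compared (up to 0.206, edgeR). In SKF+Aβ it did so without SKF replicate 1 or either SKF+Aβ library (up to 0.141), with log2 fold changes of 1.13 to 1.46.

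Ordered by level, ENSRNOG00000060430 went from SKF (13.2 ± 0.9 CPM, SD, n = 2) through CSP-TTK21 (32.1 ± 6.29), SKF+Aβ+CSP-TTK21 (34.5 ± 0.571) and SKF+Aβ (40.8 ± 0.879) to SKF+Aβ+CSP (59.9 ± 0.504). The CSP-TTK21 libraries spanned those of SKF+Aβ+CSP-TTK21. The step from SKF+Aβ+CSP-TTK21 to SKF+Aβ, whose libraries did not overlap, did not pass the test, and that from SKF+Aβ to SKF+Aβ+CSP did not pass the adjusted test, as given with the nanosphere comparisons. Whether the copies differed in their change was not tested. The count of ENSRNOG00000060430 divided by that of ENSRNOG00000056608 was 1.45 and 1.42 with SKF and between 1.63 and 2.4 in the other 8 libraries, highest in CSP-TTK21 (2.4 and 2.19). The other Y RNA copies together had 2 to 12 counts per library, too few to compare.

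Summed over its 28 genes, Y RNA was at 23.6 and 22.1 CPM with SKF, 67.6 and 60.7 with SKF+Aβ, 89.8 and 91.9 with SKF+Aβ+CSP, 54.0 and 53.6 with SKF+Aβ+CSP-TTK21, and 40.9 and 54.2 with CSP-TTK21. The ratios of the group means to SKF were 2.81, 3.98, 2.35 and 2.08 in that order of groups. Of the proteins that bind Y RNAs, 5 of the 6 list genes in the table were tested. In SKF+Aβ against SKF, where 2.08% of all genes passed, 1 of them passed. This was Ssb, which encodes La, the protein that binds the 3′ ends of new RNA polymerase III transcripts. Ssb was at 58.8 and 65.5 CPM with SKF, 116 and 108 with SKF+Aβ, 105 and 123 with SKF+Aβ+CSP, 121 and 103 with SKF+Aβ+CSP-TTK21, and 80.3 and 90.2 with CSP-TTK21. It was lowest in both SKF libraries and next lowest in CSP-TTK21. It rose by 0.85 in SKF+Aβ (SE 0.14, adjusted p = 0.0306, edgeR), while differences of 0.88, 0.85 and 0.46 in the other 3 groups had adjusted p-values of 0.0559, 0.08 and 0.633. The adjusted p was above 0.05 without SKF replicate 1 or either SKF+Aβ library (up to 0.141, edgeR), with differences of 0.77 to 0.93. Trove2, which encodes Ro60, was at 44.4 and 51.3 CPM with SKF and 55.3 to 72.6 in the other libraries, with adjusted p-values of 0.114 to 0.633 against SKF (edgeR).

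SRP RNA was lower than in SKF in every other group, and this rested in large part on SKF replicate 2. Summed over 32 genes it was at 55.5 and 148 CPM with SKF, 27.6 and 48.9 with SKF+Aβ, 32.9 and 27.4 with SKF+Aβ+CSP, 40.8 and 52.5 with SKF+Aβ+CSP-TTK21, and 50.4 and 44.4 with CSP-TTK21. Both SKF libraries were above all the others. The log2 ratios of the group means to SKF were −1.41, −1.75, −1.12 and −1.10. Without SKF replicate 2 they were −0.54, −0.88, −0.25 and −0.23. Without the highest copy they were −1.51, −2.04, −1.43 and −1.33, and SKF+Aβ and CSP-TTK21 then overlapped SKF. All 8 tested SRP copies had a negative log2 fold change in each of the 4 comparisons against SKF, with medians of −1.27, −1.52, −0.94 and −0.85, while the median over all genes lay between −0.01 and 0.

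In SKF+Aβ, 3 of the 8 tested SRP copies fell at an adjusted p under 0.05 (edgeR), as did 0.852% of all genes. The copy with the highest count in the class, ENSRNOG00000048993, was at 30.2 and 49.6 CPM with SKF, 14.6 and 18.6 with SKF+Aβ, 15.9 and 14.3 with SKF+Aβ+CSP, 18.2 and 29.3 with SKF+Aβ+CSP-TTK21, and 23.0 and 22.9 with CSP-TTK21. It fell by 1.27 in SKF+Aβ (SE 0.26, adjusted p = 0.0376, edgeR), under the fold limit, and its differences of −1.40, −0.75 and −0.80 in the other groups had adjusted p-values of 0.0572, 0.147 and 0.633. Only the SKF libraries were above 29.3 CPM. ENSRNOG00000055825, with 27 and 18 counts with SKF and 3 and 2 with SKF+Aβ, fell by 3.03 (SE 0.6, adjusted p = 0.0374). ENSRNOG00000052862, with 16 and 50 counts with SKF and 5 and 2 with SKF+Aβ, fell by 3.10 (SE 0.63, adjusted p = 0.0376). Each of the 3 copies had an adjusted p above 0.05 in 5 of the 10 fits that left out 1 library, always without either SKF+Aβ library or either SKF+Aβ+CSP library, at up to 0.165 (edgeR). The fifth was SKF replicate 2 for ENSRNOG00000048993 (−0.86, adjusted p = 0.0953) and ENSRNOG00000052862 (−2.10, adjusted p = 0.0964), and SKF replicate 1 for ENSRNOG00000055825 (−2.68, adjusted p = 0.134). Of the 7 SRP protein genes tested, none passed in any comparison by edgeR. An unadjusted p under 0.05 in SKF+Aβ was found for 2 of them, against 22.8% of all genes. The lowest p was that of Srp54a, which encodes the subunit that binds signal peptides, with a difference of 0.46 in SKF+Aβ+CSP-TTK21 against SKF (SE 0.15, adjusted p = 0.143).

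Some copies had most of their reads in a single library. Among the 131 copies with at least 50 counts, 3 (2.29%) had more than 50% of them in 1 library, compared with 4 of 15748 genes (0.0254%) in the whole table, a total that includes these 3. SRP copy ENSRNOG00000059449 had 263 counts in SKF replicate 2, 101 in SKF+Aβ replicate 2 and 51 with SKF+Aβ+CSP-TTK21 replicate 1, and 3 to 8 in the other 7 libraries. SRP copy ENSRNOG00000053717 had 193 counts in SKF replicate 2 and 2 to 25 in the others. U1 copy ENSRNOG00000060441 had 87 counts in SKF replicate 1, 48 in CSP-TTK21 replicate 1, and 0 to 2 in the other 8. In each case the other replicate of the group with the highest count was among the lowest, so the most negative log2 fold changes among the copies, such as −5.45 for ENSRNOG00000059449 in SKF+Aβ+CSP (SE 1.71, adjusted p = 0.127, edgeR) and −4.01 for ENSRNOG00000053717 in SKF+Aβ (SE 1.24, adjusted p = 0.0886), rested on 1 library. For ENSRNOG00000059449 the same holds for −4.20 in CSP-TTK21 against SKF (SE 1.5, adjusted p = 0.633) and 3.15 for the loaded against the empty nanosphere with SKF and Aβ (SE 1.99, adjusted p = 0.633). No fold change is given for ENSRNOG00000060441, which was at 0 in both SKF+Aβ libraries and in SKF replicate 2. These 3 copies were singled out after their values were seen.

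**Figure D3:**
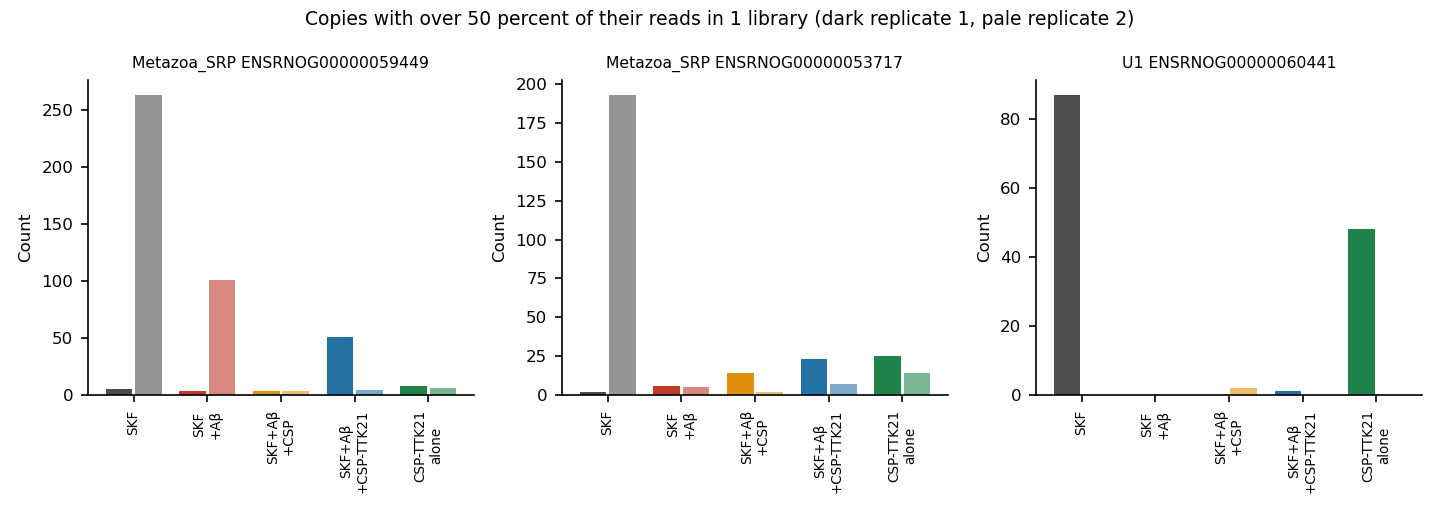
Counts per library of the 3 copies with over 50% of their reads in 1 library (dark bar replicate 1, pale bar replicate 2; axes start at 0 and differ between panels). ENSRNOG00000059449 and ENSRNOG00000053717 peak in SKF replicate 2 at 263 and 193 counts, and ENSRNOG00000060441 in SKF replicate 1 at 87.

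7SK RNA was lower in SKF+Aβ and SKF+Aβ+CSP than in SKF. In both CSP-TTK21 libraries it was below SKF by less, and in SKF+Aβ+CSP-TTK21 it overlapped SKF. Its main copy, ENSRNOG00000058555, was at 3690 and 4190 CPM with SKF, 2720 and 2800 with SKF+Aβ, 3150 and 2660 with SKF+Aβ+CSP, 3580 and 3850 with SKF+Aβ+CSP-TTK21, and 3460 and 3540 with CSP-TTK21. The 4 libraries of SKF+Aβ and SKF+Aβ+CSP were below the other 6. The differences did not pass the test over all genes. Against SKF they were −0.52 in SKF+Aβ (SE 0.13, adjusted p = 0.0614, edgeR), −0.44 in SKF+Aβ+CSP (SE 0.13, adjusted p = 0.118), −0.08 in SKF+Aβ+CSP-TTK21 (SE 0.13, adjusted p = 0.762) and −0.17 in CSP-TTK21 (SE 0.13, adjusted p = 0.755). Against SKF+Aβ, SKF+Aβ+CSP-TTK21 was higher by 0.43 (SE 0.13, unadjusted p = 0.0066, adjusted p = 0.746, edgeR), and against SKF+Aβ+CSP by 0.36 (SE 0.13, unadjusted p = 0.0194, adjusted p = 0.556). The adjusted test over 5 groups gave 0.235 for this copy. The summed markers of CA1 and other excitatory neurons, 7 of 8 in the table, moved in the same direction, at 4358 and 4942 CPM with SKF, 3848 and 3981 with SKF+Aβ, 3785 and 3435 with SKF+Aβ+CSP, 4366 and 4398 with SKF+Aβ+CSP-TTK21, and 4166 and 3673 with CSP-TTK21. The oligodendrocyte marker sums given above were also below SKF in SKF+Aβ and in CSP-TTK21. The part of either list in the 7SK values was not tested.

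The other 423 copies of 7SK did not follow it as a sum. Together they were at 147 and 156 CPM with SKF, 156 and 147 with SKF+Aβ, and 151 and 152 with SKF+Aβ+CSP, with 124 and 140 with SKF+Aβ+CSP-TTK21 and 158 and 138 with CSP-TTK21. Single copies moved in both directions. In SKF+Aβ, ENSRNOG00000051406 was at 13.8 and 14.0 CPM against 6.90 and 7.99 with SKF and rose by 0.90 (SE 0.21, adjusted p = 0.047, edgeR). ENSRNOG00000061908 was at 1.81 and 2.38 against 6.35 and 6.26 CPM and fell by 1.58 (SE 0.37, adjusted p = 0.0472). ENSRNOG00000053909 was at 1.81 and 2.08 against 6.90 and 7.99 CPM and fell by 1.93 (SE 0.42, adjusted p = 0.0422). The last copy was at 1.17 to 3.51 CPM in all 8 libraries outside SKF, and for ENSRNOG00000061908 the SKF+Aβ+CSP-TTK21 libraries, at 3.19 and 4.98, lay between SKF and the other 6. The adjusted p was above 0.05 in 10, 8 and 6 of the 10 fits without 1 library, at up to 0.168, 0.191 and 0.165 (edgeR), while the log2 fold changes stayed at 0.80 to 1.01, −1.79 to −1.40 and −2.03 to −1.82. For each copy this was so without any 1 of the 4 libraries compared or either SKF+Aβ+CSP library, and for ENSRNOG00000061908 and ENSRNOG00000051406 also without either CSP-TTK21 library. Copy ENSRNOG00000061825 had 1 count in each SKF+Aβ+CSP-TTK21 library and 2 to 13 in the other 8, and gave the lowest log2 fold change of that group against SKF+Aβ+CSP (−3.26, SE 0.94, adjusted p = 0.517, edgeR) and against SKF+Aβ (−2.76, SE 1, adjusted p = 0.746), and one of −3.11 against SKF (SE 0.96, adjusted p = 0.134). Of the 6 tested genes of the 7SK particle, none passed in any comparison by edgeR. An unadjusted p under 0.05 in SKF+Aβ was found for 2 of them, against 22.8% of all genes. The lowest p was that of Hexim1, the P-TEFb inhibitor, which was at 94.9 and 85.5 CPM with SKF and 69.2 and 67.3 with SKF+Aβ+CSP (−0.40, SE 0.14, adjusted p = 0.165).

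RNase MRP RNA, ENSRNOG00000057527, was at 379 and 566 CPM with SKF, 230 and 328 with SKF+Aβ, 300 and 183 with SKF+Aβ+CSP, 277 and 348 with SKF+Aβ+CSP-TTK21, and 410 and 257 with CSP-TTK21. Only CSP-TTK21 overlapped SKF, and the differences of −0.76, −0.97, −0.60 and −0.50 (SE 0.27 each) had adjusted p-values of 0.125, 0.102, 0.245 and 0.662 (edgeR). Without SKF replicate 2 the log2 ratios to SKF of RNase MRP and vault RNA together were −0.44, −0.65, −0.28 and −0.19. In SKF+Aβ the oligodendrocyte marker sum differed by −0.60 on the same scale, and its part was not tested. Vault RNA, ENSRNOG00000052373, had 3 to 12 counts in each library, and was at 3 and 3 with SKF+Aβ against 11 and 6 with SKF (−1.38, SE 0.76, adjusted p = 0.296). Of the 11 RNase P and MRP protein genes, none passed in any comparison by edgeR. An unadjusted p under 0.05 in SKF+Aβ was found for 1 of them, against 22.8% of all genes. Rpp25l was lowest in p (−0.87 in SKF+Aβ+CSP, SE 0.31, adjusted p = 0.165, edgeR). Mvp, the major vault protein gene, differed by −0.62 in SKF+Aβ (SE 0.23, adjusted p = 0.132).

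The spliceosomal RNAs were higher as a sum in all 4 other groups than in SKF, without any copy passing the adjusted test. The 1368 genes named U1, U2, U4, U5, U6, U11 and U12 summed to 406 and 452 CPM with SKF, 709 and 617 with SKF+Aβ, 569 and 665 with SKF+Aβ+CSP, 455 and 731 with SKF+Aβ+CSP-TTK21, and 519 and 569 with CSP-TTK21. All 8 libraries were above SKF, the closest at 455 CPM against 452. Without SKF+Aβ+CSP-TTK21 replicate 2, the log2 ratio of that group to SKF went from 0.47 to 0.08, and without its replicate 1 to 0.77. The main U1 copy, ENSRNOG00000055105, made most of this sum. It was at 226 and 252 CPM with SKF, 421 and 389 with SKF+Aβ, 334 and 408 with SKF+Aβ+CSP, 253 and 525 with SKF+Aβ+CSP-TTK21, and 281 and 345 with CSP-TTK21. It differed from SKF by 0.76, 0.64, 0.70 and 0.39 (SE 0.25 each), with adjusted p-values of 0.101, 0.19, 0.161 and 0.692 (edgeR). The other 219 U1 copies summed to 61.8 and 57.8 CPM with SKF and to 44.0 to 69.4 in the other libraries.

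U6 and U4 were higher as sums in SKF+Aβ, SKF+Aβ+CSP and CSP-TTK21 than in SKF. In SKF+Aβ+CSP-TTK21 the U6 sum was higher by less, and the U4 sum overlapped SKF. U6, the RNA that forms part of the catalytic centre with U2, summed over 919 genes to 66.6 and 76.5 CPM with SKF, 144 and 99.5 with SKF+Aβ, 105 and 123 with SKF+Aβ+CSP, 87.9 and 78.4 with SKF+Aβ+CSP-TTK21, and 98.8 and 84.3 with CSP-TTK21. The SKF libraries were lowest, and SKF+Aβ+CSP-TTK21 replicate 2, at 78.4 CPM, was next to SKF replicate 2. The 901 U6 copies below the filter gave 46.5 and 58.5 CPM with SKF, 102 and 65.1 with SKF+Aβ, 75.9 and 83.2 with SKF+Aβ+CSP, 59.2 and 54.6 with SKF+Aβ+CSP-TTK21, and 71.5 and 61.0 with CSP-TTK21. Over these low copies SKF+Aβ+CSP-TTK21 overlapped SKF and the other 3 groups lay above it, while for the 18 tested copies all 4 groups lay above SKF. U4, which pairs with U6 before activation, summed over 115 genes to 15.0 and 19.3 CPM with SKF, 28.6 and 27.4 with SKF+Aβ, 25.2 and 29.7 with SKF+Aβ+CSP, 19.0 and 22.3 with SKF+Aβ+CSP-TTK21, and 24.6 and 25.6 with CSP-TTK21. Its main copy, ENSRNOG00000052742, moved less, by 0.26 in SKF+Aβ (SE 0.23, adjusted p = 0.524, edgeR).

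U2 did not share this pattern. Its 86 genes summed to 33.9 and 38.2 CPM with SKF, 38.2 and 43.1 with SKF+Aβ, 35.1 and 37.9 with SKF+Aβ+CSP, 44.0 and 40.5 with SKF+Aβ+CSP-TTK21, and 43.0 and 41.9 with CSP-TTK21. Its main copy, ENSRNOG00000054047, differed from SKF by between −0.05 and 0.22 in the 4 groups (SE 0.2 each), with adjusted p-values of 0.555 to 0.918 (edgeR). The U6 copy with the highest count, ENSRNOG00000061677, was at 1.66 and 3.60 CPM with SKF and 3.18 to 7.90 in the other libraries, and its difference of 1.06 in SKF+Aβ had an adjusted p of 0.202 (SE 0.47). U6 copy ENSRNOG00000057640 was the highest log2 fold change of SKF+Aβ+CSP against SKF, at 2.41 (SE 0.66, adjusted p = 0.0973, edgeR), with 4 and 3 counts with SKF and 15 and 24 with SKF+Aβ+CSP. In SKF+Aβ the highest were U1 ENSRNOG00000057737 at 2.46 (SE 0.83, adjusted p = 0.11), with 2 and 2 against 16 and 6 counts, and U4 ENSRNOG00000060556 at 2.41 (SE 0.68, adjusted p = 0.0723), with 1 and 3 against 10 and 11 counts. These last 2 copies were also the highest in CSP-TTK21 against SKF, at 2.12 and 1.86, both with an adjusted p of 0.633. The last 3 copies named had at most 24 counts in any library.

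U5, U11, U3, U8 and U7 had few counts. U11 ENSRNOG00000053078 had 11 and 39 counts with SKF and 14 to 34 in the other libraries, and overlapped SKF in all 4 groups. U3 ENSRNOG00000056198 had 2 to 16 counts. U8 ENSRNOG00000056054 had 1 and 4 counts with SKF, 11 and 8 with SKF+Aβ and 8 and 14 with SKF+Aβ+CSP-TTK21, where its log2 fold change of 2.09 was the highest among the 93 copies (SE 0.76, adjusted p = 0.172, edgeR). The next highest there, U6 ENSRNOG00000052382 at 1.74 (SE 0.98, adjusted p = 0.34), had 17 and 4 counts against 2 and 4, which is 2.17 and 0.569 against 0.276 and 0.533 CPM. U5 had 7 to 23 counts per library over 13 genes, and U7 19 to 36 over 83.

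Set side by side, the classes did not move together. In SKF+Aβ against SKF the log2 ratio of the summed level was 1.49 for Y RNA, 0.76 for U6, 0.70 for U4, 0.64 for U1 and 0.17 for U2, but −0.49 for 7SK, −0.76 for RNase MRP RNA and −1.41 for SRP. In SKF+Aβ+CSP the same classes gave 1.99, 0.67, 0.68, 0.53, 0.02, −0.42, −0.97 and −1.75. With SKF+Aβ+CSP-TTK21 they gave 1.24, 0.22, 0.27, 0.56, 0.23, −0.09, −0.60 and −1.12, and in CSP-TTK21 alone 1.06, 0.36, 0.55, 0.34, 0.23, −0.16, −0.50 and −1.10. The sums were not tested. The 4 ratios of each class share the SKF libraries.

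**Figure D4:**
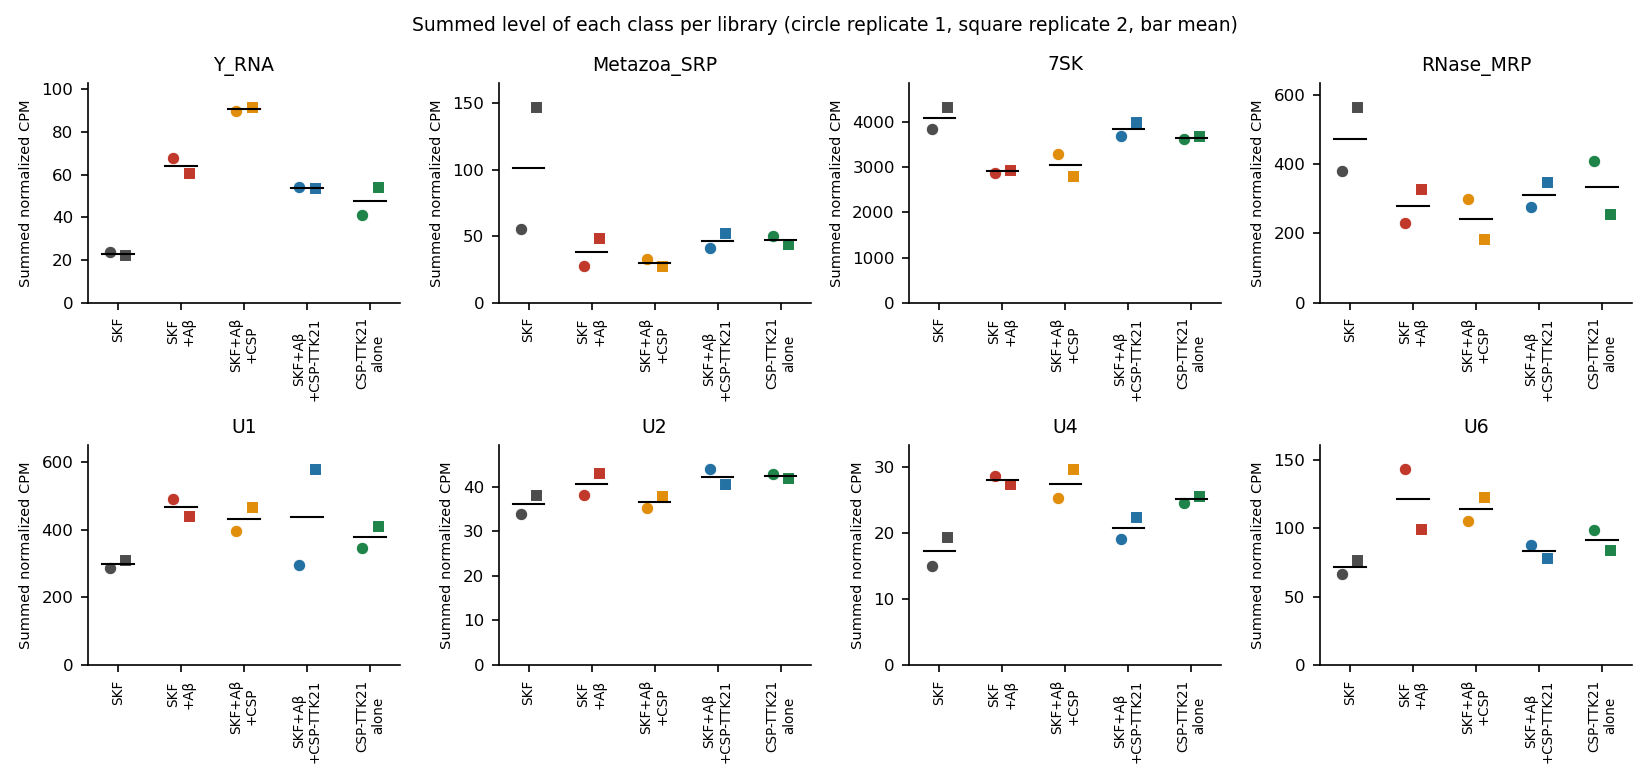
Summed normalized counts (CPM) of 8 classes in each library (circle replicate 1, square replicate 2, bar group mean; each axis starts at 0 and has its own scale). SKF lies lowest for Y RNA at 23.6 and 22.1 and highest for SRP at 55.5 and 148, and the SKF+Aβ and SKF+Aβ+CSP libraries lie lowest for 7SK.

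Copy by copy, the 8 SRP copies were all lower than in SKF in SKF+Aβ, 5 of them with both libraries below both SKF libraries, which 24.3% of all genes showed. The 18 U6 copies were higher in 16 cases, 12 of them with both libraries above SKF, against 25.2% of all genes, and their median log2 fold change was 1.11. The 5 U4 copies were all higher, 3 with both libraries above SKF, with a median of 0.97. The 14 U1 copies had a median of 0.23 with 8 higher, the 4 U2 copies −0.56 with 2 higher, and the 37 7SK copies −0.23 with 16 higher, 8 above and 14 below SKF. Other structural RNAs, namely 188 tested small nucleolar, small Cajal body and ribosomal RNA genes, had a median of 0.65 with 150 higher and 108 above SKF, so copies of short RNAs outside the classes studied were also mostly higher. The filter lets a low copy pass through the group where it is high, so these counts describe only the copies tested.

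In SKF+Aβ+CSP, all 8 SRP copies were lower and 7 were below SKF (25.3% of all genes), 16 of 18 U6 copies were higher and 9 above SKF (27.1% of all genes), and 4 of 5 U4 copies were above SKF. With SKF+Aβ+CSP-TTK21, 2 SRP copies were below SKF (24.5%), and 7 U6 copies (26.0%) and 1 U4 copy were above it, with a U6 median of 0.18. In CSP-TTK21 alone, 3 SRP copies were below SKF (17.3%), 7 U6 and 4 U4 copies were above it (18.8%), and the U6 median was 0.39. The 188 other structural RNAs had medians of 0.57, 0.26 and 0.32 in that order of groups. Of them, 145, 119 and 134 were higher, and 88, 63 and 71 were above SKF in both libraries.

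**Figure D5:**
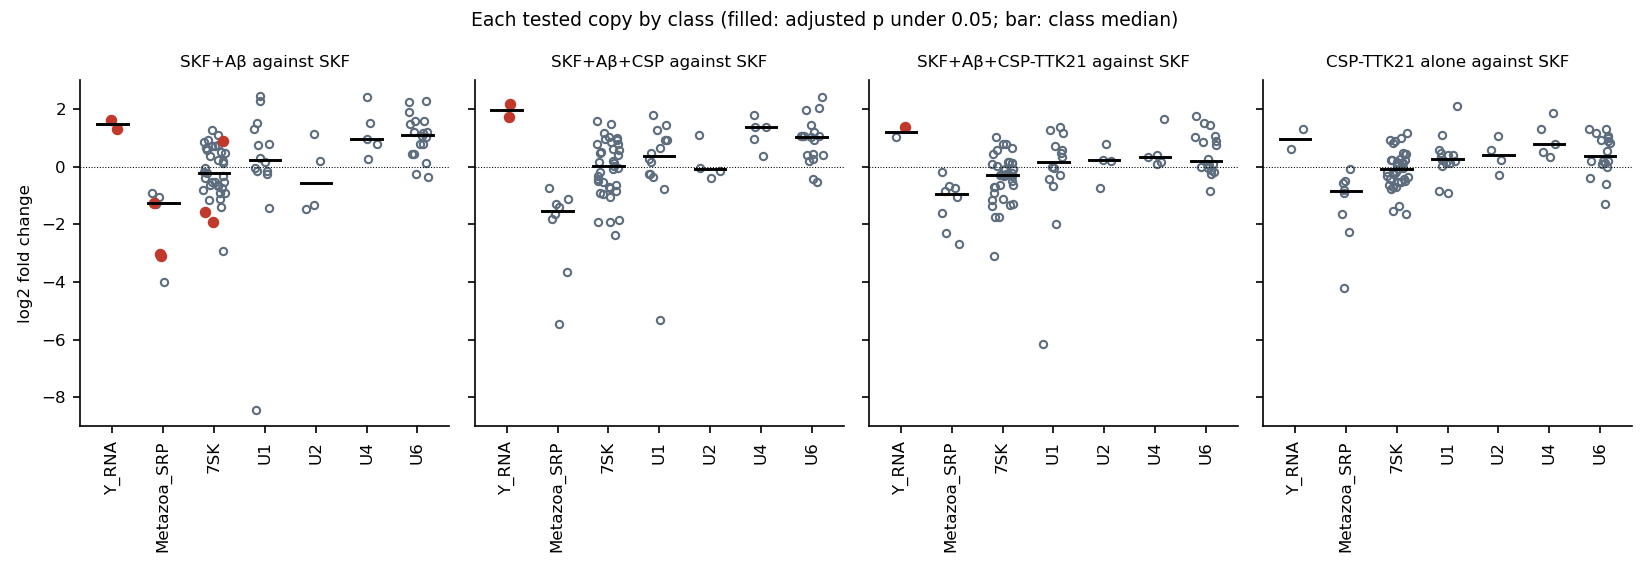
Log2 fold change of each tested copy against SKF in 4 groups, by class (each point 1 gene, filled red with an adjusted p under 0.05, bar the class median, dotted line 0). All 8 SRP points lie below 0 in every panel, and the panels hold 8, 2, 1 and 0 filled points, the first being SKF+Aβ and the last CSP-TTK21.

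Counted over the 93 tested copies, calls (adjusted p under 0.05 and a log2 fold change beyond 1.5, edgeR) were few. In SKF+Aβ against SKF 5 copies were called of 22 genes in all (0.146%). The 1 called higher, Y_RNA ENSRNOG00000060430, stood among 14 genes (0.0931%), and the 4 called lower, 2 SRP and 2 7SK copies, among 8 (0.0532%). With no fold limit, 8 copies passed of 312 genes (2.08%), 3 of them higher (1.22% of all genes) and 5 lower (0.852%). At an unadjusted p under 0.05, 36 copies (38.7%) and 22.8% of all genes passed. The call count depended on single libraries. It was 0 without SKF+Aβ replicate 1, 1 without SKF+Aβ replicate 2 or either SKF+Aβ+CSP library, 2 without SKF replicate 2, and 4 or 5 without any other library. In SKF+Aβ+CSP against SKF, the 2 genes called in the whole table (0.0133%) were the 2 Y RNA copies, and with no fold limit they were 2 of 3 genes (0.0200%). This count was 1 without SKF replicate 2 or either SKF+Aβ+CSP library and 3 without SKF replicate 1, and 30 copies passed an unadjusted p under 0.05 against 19.4% of all genes. In SKF+Aβ+CSP-TTK21 against SKF, 0 genes were called (0%) by edgeR and 0 copies by DESeq2 or limma. The single gene of 15032 with an adjusted p under 0.05 (0.00665%, edgeR) was Y_RNA ENSRNOG00000060430. Its log2 fold change was 1.39, and 1.32 to 1.46 over the alternatives, so the fold limit excluded it in each whatever its adjusted p. At an unadjusted p under 0.05, 19 copies and 19.6% of all genes passed (edgeR). Without SKF replicate 2, 1 copy was called among 68 genes. In CSP-TTK21 against SKF, 0 genes had an adjusted p under 0.05 (0%) by edgeR. DESeq2 and limma called 0 copies, counted with the fold limit of 1.5. At an unadjusted p under 0.05, 13 copies and 7.78% of all genes passed (edgeR).

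The nanosphere comparisons asked how slices given SKF and Aβ differed with CSP or CSP-TTK21 as a co-treatment. No copy passed the adjusted test in these comparisons by edgeR. In SKF+Aβ+CSP against SKF+Aβ, 0 genes had an adjusted p under 0.05 (0%, edgeR), 0 copies were called by DESeq2 or limma, and 4 copies and 2.18% of all genes had an unadjusted p under 0.05. Both Y RNA copies had both SKF+Aβ+CSP libraries above SKF+Aβ, as did 14.3% of all genes. ENSRNOG00000060430 differed by 0.55 (SE 0.15, unadjusted p = 0.00321, adjusted p = 1, edgeR) and ENSRNOG00000056608 by 0.40 (SE 0.19, unadjusted p = 0.0594). SRP copy ENSRNOG00000052862 differed by 1.98 (SE 0.68, adjusted p = 1), with 16 and 15 counts against 5 and 2, and 7SK copy ENSRNOG00000053798, with 12 and 12 against 3 and 4, by 1.61 (SE 0.64, adjusted p = 1). The lowest log2 fold changes were −4.23 for SRP copy ENSRNOG00000059449 (SE 1.83, adjusted p = 1), which rested on 101 counts in SKF+Aβ replicate 2, and −1.02 for U1 copy ENSRNOG00000057737 (SE 0.69, adjusted p = 1).

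In SKF+Aβ+CSP-TTK21 against SKF+Aβ, 0 genes had an adjusted p under 0.05 (0%, edgeR), 0 copies were called by DESeq2 or limma, and 9 copies and 6.59% of all genes had an unadjusted p under 0.05. Both Y RNA copies were below SKF+Aβ in both libraries (17.7% of all genes), by −0.24 (SE 0.16, adjusted p = 0.777) and −0.28 (SE 0.2, adjusted p = 0.788). Leaving aside U1 copy ENSRNOG00000060441, the highest log2 fold changes were those of the SRP copies ENSRNOG00000055825, with 11 and 17 counts against 3 and 2 (2.35, SE 0.64, adjusted p = 0.746, edgeR), and ENSRNOG00000052862, with 19 and 18 against 5 and 2 (2.27, SE 0.66, adjusted p = 0.746). Of the 8 SRP copies, 3 were above SKF+Aβ in both libraries (18.2% of all genes). A negative log2 fold change was seen in 17 of 18 U6 copies, 5 of them with both libraries below. The other structural RNAs were also mostly lower, with 139 of 188 negative and 63 below in both libraries. U1 copy ENSRNOG00000057236, with 6 and 4 counts against 20 and 13, was the second lowest after 7SK ENSRNOG00000061825 (−1.79, SE 0.62, adjusted p = 0.746).

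In SKF+Aβ+CSP-TTK21 against SKF+Aβ+CSP, the comparison of loaded with empty nanosphere, 0 genes had an adjusted p under 0.05 (0%, edgeR), 0 copies were called by DESeq2 or limma, and 12 copies and 8.77% of all genes had an unadjusted p under 0.05. Y RNA was lower with CSP-TTK21, by −0.79 for ENSRNOG00000060430 (SE 0.16, unadjusted p = 1.87e-04, adjusted p = 0.336, edgeR) and −0.68 for ENSRNOG00000056608 (SE 0.2, unadjusted p = 0.00386, adjusted p = 0.517). Both copies had both libraries below, as did 22.8% of all genes. U6 copy ENSRNOG00000060360, with 7 and 6 counts against 26 and 27, differed by −1.98 (SE 0.48, adjusted p = 0.51). Of the 8 SRP copies, 7 had a positive log2 fold change and 5 were above SKF+Aβ+CSP in both libraries (23.5% of all genes), and 7SK copy ENSRNOG00000061908 differed by 1.30 (SE 0.39, adjusted p = 0.517). The nanosphere comparisons share libraries with each other, and with those against SKF.

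Of the genes for proteins of the spliceosomal particles, 1 of the 18 tested of the Sm and LSm core list and 1 of the 21 tested of the U2, U4/U6 and U5 list passed. Both did so in SKF+Aβ against SKF, where 2.08% of all genes passed, and in no other comparison. Lsm4, a subunit of the ring that binds U6, was at 28.1 and 26.9 CPM with SKF and 16.0 and 16.2 with SKF+Aβ and fell by 0.77 (SE 0.16, adjusted p = 0.0402, edgeR). Sf3b1, the U2 subunit that contacts the branch point, was at 338 and 331 CPM with SKF and 527 and 480 with SKF+Aβ and rose by 0.59 (SE 0.13, adjusted p = 0.0422). Their adjusted p was above 0.05 in 6 and 7 of the 10 fits without 1 library, in both cases without any 1 of the 4 libraries compared or either SKF+Aβ+CSP library, and for Sf3b1 also without CSP-TTK21 replicate 2, at up to 0.15 and 0.163 (edgeR), with differences of −0.80 to −0.74 and 0.52 to 0.65. None of 28 tested genes for RNA polymerase III and its factors passed in any comparison by edgeR. In SKF+Aβ against SKF, 4 of them had an unadjusted p under 0.05, against 22.8% of all genes. The lowest p was that of Gtf3c3, a TFIIIC subunit, at 22.5 and 26.0 CPM with SKF and 38.5 and 41.4 with SKF+Aβ+CSP (0.72, SE 0.18, adjusted p = 0.0893). Of 14 tested genes of Integrator, the complex that cleaves the 3′ ends of polymerase II U RNAs, none passed by edgeR. An unadjusted p under 0.05 in SKF+Aβ was found for 4 of them, against 22.8% of all genes. Ints6 was the lowest in p (0.56 in SKF+Aβ, SE 0.18, adjusted p = 0.101, edgeR). The median log2 fold changes of these lists in SKF+Aβ against SKF were −0.02, −0.07, −0.06 and 0.16.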

How the data were processed

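The values are raw read counts of rat Ensembl genes in 10 libraries, as the authors deposited them, neither normalized nor pooled. Per the study's methods, libraries were stranded and depleted of ribosomal RNA, and duplicates were removed, which can lower short abundant RNAs most. The methods name TopHat2, with Rnor_6.0 and mm10 in different places, and Cufflinks for quantification. The submitters' notes name STAR, RSEM, HISAT2, Salmon and GRCh38. The program behind the deposited counts, its use of strand and its treatment of multiply mapped reads are not given in the sources used here.

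For the tests, edgeR 4.0.16 under R 4.3.3 was used. Low genes were removed by filterByExpr with groups, and the counts were scaled by TMM, and fitted in 1 quasi-likelihood model of 5 group means over 10 libraries, with Benjamini-Hochberg adjustment over 15032 genes. Calls required an adjusted p under 0.05 and a log2 fold change beyond 1.5. Class sums were not tested. The script was tested on simulated data. Alternatives used DESeq2 1.42.0 (also without independent filtering, added after seeing the data), limma 3.58.1 (prior count 2), RLE factors, other filters, the replicate number as a block, the 4 libraries compared only, and each library left out. Members and lists were chosen with earlier results of these data known. Copies named are those with an adjusted p under 0.05, the highest count of a class, or among the 2 highest and 2 lowest log2 fold changes of a comparison. Partner genes named are those with an adjusted p under 0.05, or else the lowest p of a list; Trove2 was added. No copy sequence was used.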

Additional observations from a re-analysis of the deposited data

How the results depend on the processing

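With 2 libraries per group, the limits are the small number of libraries and, for most copies, under 25 counts per library. The counts of copies called in the 7 comparisons and in the test over 5 groups were recomputed under each alternative. In SKF+Aβ against SKF, the 5 calls became 1 with DESeq2 (of 4 genes called in all), which gave no adjusted p-value to the other 4, and 4 (of 32) with DESeq2 without independent filtering. They became 14 (of 112 genes) with no low-count filter, 2 (of 14) with at least 10 counts required in every library, 1 (of 7) with only the 4 libraries compared, 8 (of 312) with no fold limit, and 0 to 5 with 1 library left out. In SKF+Aβ+CSP against SKF, the 2 calls became 13 (of 69 genes) with no low-count filter, 5 (of 14) with DESeq2 without independent filtering and 1 to 3 with 1 library left out. In SKF+Aβ+CSP-TTK21 against SKF, 0 became 6 (of 120 genes) with no filter, 1 (of 1) with no fold limit and 0 to 1 with 1 library left out. With no filter, which tested 1077 copies among 25251 genes, CSP-TTK21 against SKF gave 4 calls of 29 genes, and the comparisons of SKF+Aβ+CSP with SKF+Aβ, SKF+Aβ+CSP-TTK21 with SKF+Aβ and SKF+Aβ+CSP-TTK21 with SKF+Aβ+CSP gave 1 of 19, 1 of 32 and 3 of 84. The test over 5 groups, with 1 copy, gave 2 (of 15 genes) with the replicate block, 4 (of 407) with DESeq2, 6 (of 319) with DESeq2 without independent filtering, 21 (of 1401) with no filter and 1 to 2 with 1 library left out. Of the differences of named copies and partner genes with an adjusted p under 0.05, 163 recomputed values kept that threshold, 81 lost it and 0 changed sign.

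The replicate numbers share only a number. The differences between replicates correlated between groups at −0.0691 to 0.237, and the block changed the count of called copies beyond 1.5 times only in the test over 5 groups, where it gave 2.

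Class sums moved with the choice of copies and libraries. Without the highest copy, the log2 ratios of Y RNA to SKF became 1.27, 1.68, 0.99 and 0.67 in the order SKF+Aβ, then SKF+Aβ+CSP, then SKF+Aβ+CSP-TTK21, then CSP-TTK21, those of 7SK 0, 0, −0.2 and −0.04, those of the spliceosomal RNAs 0.44, 0.37 and 0.1 in the first 3, and those of RNase MRP and vault RNA, which is then vault RNA alone, −1.42, 0.02, −0.15 and 0. With library totals in place of TMM, Y RNA in SKF+Aβ+CSP-TTK21 was 1.16. With 1 of the 4 libraries of a ratio left out, Y RNA in the same order of groups ranged over 1.41 to 1.56, 1.95 to 2.04, 1.19 to 1.28 and 0.84 to 1.24, SRP over −1.95 to −0.54, −2.29 to −0.88, −1.66 to −0.25 and −1.64 to −0.23, 7SK over −0.58 to −0.4, −0.54 to −0.31, −0.17 to 0 and −0.25 to −0.07, RNase MRP and vault RNA over −1.04 to −0.44, −1.36 to −0.65, −0.86 to −0.28 and −0.88 to −0.19, and the spliceosomal RNAs in SKF+Aβ+CSP-TTK21 over 0.08 to 0.77.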
